A study of Mus musculus with 6 samples.

Results

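Semaphorins, Slits, netrins and ephrins are guidance cues, secreted or membrane-bound proteins that attract or repel migrating cells and growing vessels. The genes described here are these 4 ligand families together with their main receptors, the plexins, Robo, Unc5 and Eph receptors. Members were taken by symbol alone from the deposited table of 38918 genes, which gave 67 rows with 66 symbols, as Efna5 was listed on 2 rows. Of the 67, 36 were ligand rows and 31 receptor rows, and 50 had a mean of at least 1 FPKM (fragments scaled to transcript length and to the mapped fragments of the library) over the 6 libraries and were tested.

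RNA came from whole hearts of C57/BL6 mouse embryos at embryonic day 11.5. The 3 control libraries came from littermates with a Tie2 flox and a wild-type allele, and the sources used here do not say whether they carried Cre. The 3 mutant libraries came from Nfatc1Cre:Tie2 flox/flox embryos, in which a Cre recombinase driven by Nfatc1, an endocardial gene, removes Tie2 (gene symbol Tek), the receptor for angiopoietins. The comparison asks which transcripts differ in a heart whose endocardial lineage has lost Tie2. Per the labels, 18 hearts of each genotype stood behind the RNA, and the series text describes 1 pool per genotype that was then split. Xist, the transcript of the inactive X chromosome, was however listed at 8.997, 40.7 and 0.0171 FPKM in control replicates 1, 2 and 3 and at 32.9, 0.0295 and 0.0324 FPKM in the mutant replicates. Portions of 1 pool would share 1 level of Xist, so which hearts stand behind each library is not clear. All p-values describe library-to-library spread, which may be technical.

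Guidance receptors turn a contact or a gradient into a change of the cytoskeleton, mostly through small GTPases. Plexins bind semaphorins, in several cases together with a neuropilin, Robo receptors bind Slits, Dcc and Unc5 receptors bind netrins, and Eph receptors bind ephrins on neighbouring cells, with signals in both directions. In the developing cardiovascular system Plxnd1, Ephb4 with its ligand Efnb2, Unc5b and Robo4 are known from endothelium, and Sema3c from the outflow tract.

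Tek was at 22.4, 25.7 and 16.6 FPKM in the controls against 3.38, 3.13 and 3.13 FPKM in the mutants, lower in every mutant library as the labels say. The FPKM values of a library summed to 481334 to 582261, and 12647 to 13041 genes reached 1 FPKM in a library. Cardiomyocyte markers defined the tissue, with 9 of 9 detected in every library and a summed level of 14210 to 16760 FPKM in controls against 10330 to 16800 FPKM in mutants. Summed over 12 endothelial markers the level was 306 to 341 FPKM in controls against 244 to 273 FPKM in mutants, and over 6 endocardial markers 161 to 182 and 86.5 to 98.9 FPKM, so both lists lay lower in every mutant library. None of the 12 endothelial markers passed the test, 4 of the 6 endocardial markers did, and all members of both lists were above 0 in every library. Epicardial markers summed to 131 to 147 FPKM in controls against 134 to 140 FPKM in mutants, cushion mesenchyme markers to 122 to 224 and 153 to 219, and smooth muscle markers to 966 to 1474 and 791 to 1049. Markers of neurons and neural crest summed to 15.7 to 16.6 FPKM in controls against to 22.3, 18.1 and 15.4 FPKM in the mutants. Macrophage markers summed to 6.08 to 8.52 and 9.94 to 10.3 FPKM, hepatocyte markers to 22.2 to 87.5 and 2.66 to 237, and Y-linked genes to 29.6 to 65.0 and 54.9 to 82.1. Of 6 erythroid markers, Hbb-y and Hba-x were listed at 0 in all 3 controls and no sum is read from that list.

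No guidance gene passed the test over all genes. With limma on log2(FPKM + 1), 0 of the 50 tested members had an adjusted p under 0.05, where 0.177% of the 12988 genes tested did, and the smallest adjusted p among members was 0.189. At an unadjusted p under 0.05, 5 members lay lower in the mutants, against 4.37% of all genes, and 5 lay higher, against 2.31%. The control and mutant libraries did not overlap for 7 tested members that were lower (8.17% of all genes) and 6 that were higher (5.23%). The median log2 fold change (mutant minus control) was 0.04 over the 50 members, with 28 above 0 and 22 below, and -0.01 over all genes. The ligands had a median of 0.04 and the receptors likewise 0.04. In the plot of all genes tested, the members lie within the body of the other genes, with Plxnc1, Plxnd1, Sema4d and Robo4 toward its edges.

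**Figure D1:**
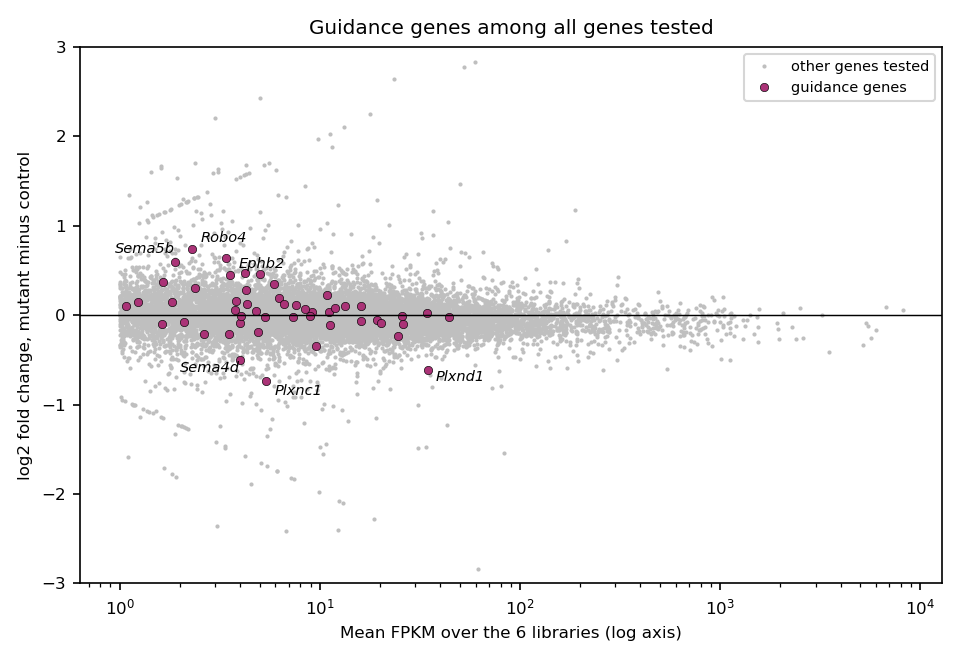
Log2 fold change (mutant minus control, FPKM + 1) against the mean FPKM over 6 libraries on a log axis, for the genes tested (grey points, 11 beyond the vertical range not drawn) and the 50 guidance genes (purple points). Plxnc1, Plxnd1 and Sema4d lie at -0.74, -0.61 and -0.50, and Robo4 at 0.74.

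The 50 tested members spread over a wide range of levels. The highest mean levels over the 6 libraries were those of Efnb3 (44.3 FPKM), Plxnd1 (34.6), Plxnb2 (34.3), Slit2 (26.2), Unc5b (25.8), Ephb4 (24.5) and Ntn1 (20.2 FPKM), the 7 members above 20 FPKM. The remaining 17 members stood under a mean of 1 FPKM and were not tested. They were Sema3e, Sema4a, Sema4f, Sema6b, Sema7a, Plxnb3, Slit1, Robo3, Ntn5, Unc5a, Unc5d, Epha5, Epha6, Epha8, Epha10, Ephb1 and Efna3, from 0.0177 FPKM (Epha10) to 0.988 FPKM (Unc5a), with 7 of them under 0.1 FPKM. Slit1, Robo3 and Epha10 were higher in every mutant library than in any control, at levels of no more than 0.127 FPKM in a library. Without the filter on low values, 5.4% of all genes were. The margin was narrow for Epha10, at 0.00831 FPKM in control replicate 3 against 0.008998 FPKM in mutant replicate 3, and nothing is read from such levels. Some ligands of the leading plexins were among the 17 members not tested. Sema3e, a ligand of Plxnd1, had a mean of 0.246 FPKM and Sema7a, the ligand of Plxnc1, one of 0.544 FPKM. Other class 3 semaphorins were higher and were tested, such as Sema3c at a mean of 10.9 FPKM.

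**Figure D2:**
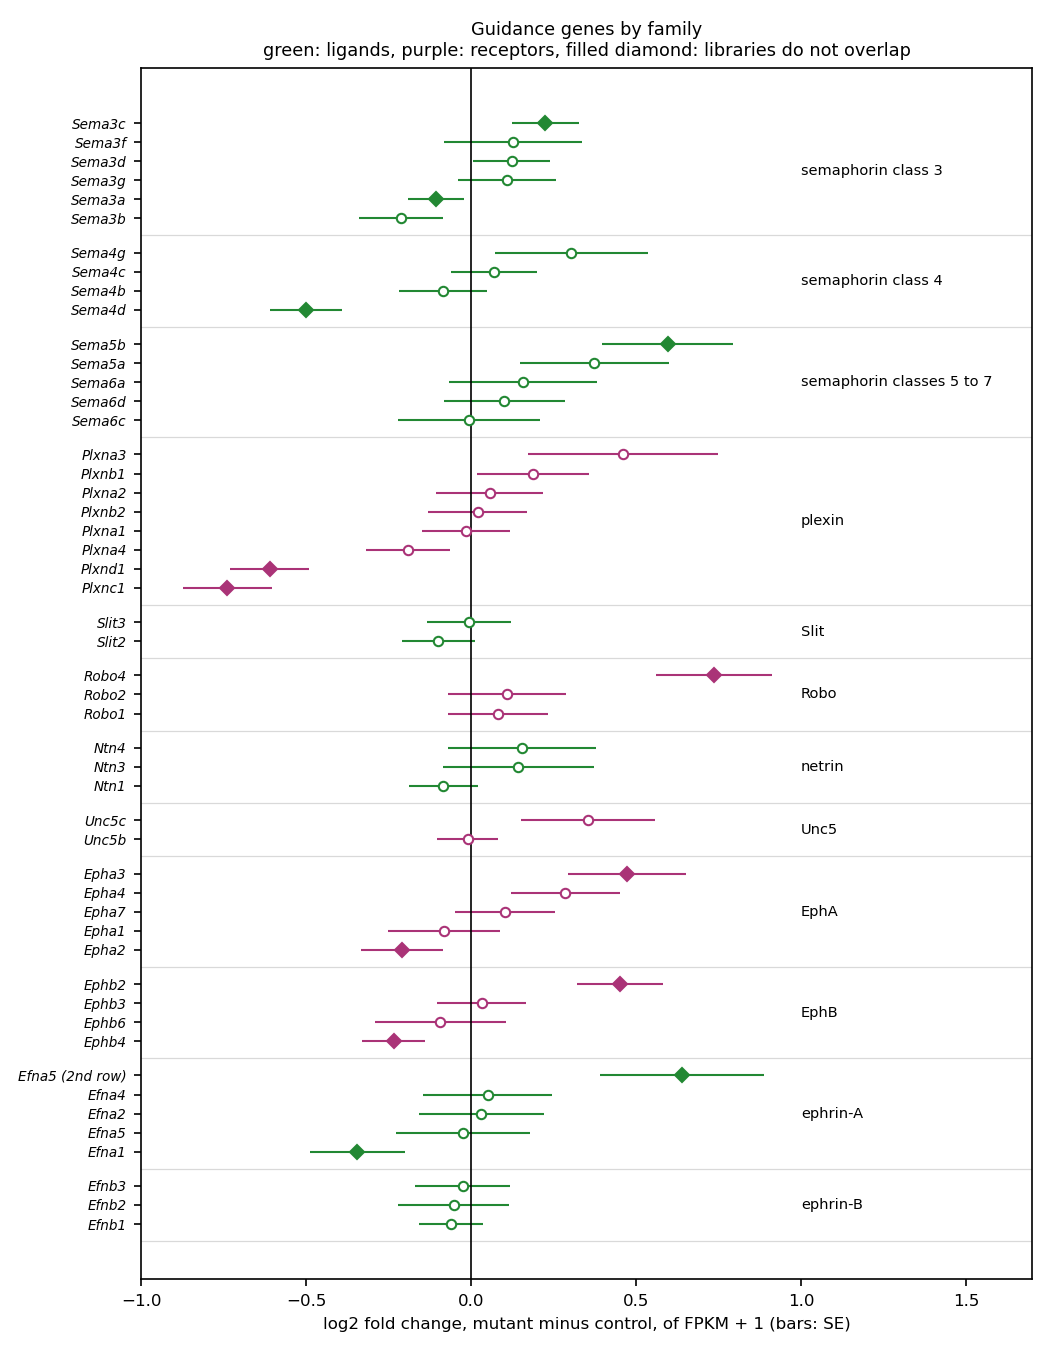
Log2 fold change (mutant minus control, FPKM + 1) with its SE for the 50 tested guidance genes by family, ligands in green and receptors in purple. Filled diamonds mark the 13 genes whose control and mutant libraries did not overlap, which range from -0.74 for Plxnc1 to 0.74 for Robo4.

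Among the plexins, the receptors of the semaphorins, Plxnc1 and Plxnd1 lay lower in the mutants and the other tested members showed no separation of the groups. Plxnc1 (ENSMUSG00000074785), the receptor of Sema7a, lies on the minus strand of chromosome 10 from 94790866 to 94944835 (GRCm38). It was at 6.13, 7.08 and 7.701 FPKM in the controls against 3.08, 4.203 and 4.07 FPKM in the mutants. Every mutant library lay below every control, and the mean was 1.84-fold lower. The log2 fold change was -0.74 ± 0.13 (SE, limma, unadjusted p = 0.000772, adjusted p = 0.189). Plxnd1 (ENSMUSG00000030123), the endothelial receptor for class 3 semaphorins, lies on the minus strand of chromosome 6 from 115954811 to 115995005. Its level was 43.5, 44.1 and 38.3 FPKM in the controls against 28.4, 29.7 and 23.5 FPKM in the mutants, again without overlap and 1.54-fold lower in the mean. The log2 fold change was -0.61 ± 0.12 (SE, limma, unadjusted p = 0.00123, adjusted p = 0.236). In bulk RNA, fewer endothelial cells and less RNA of a gene per cell cannot be told apart.

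The lower pair and Ephb2, a member that lay higher, are shown by the 250 bases before their RefSeq start sites (GRCm38.p6). Each has a single listed start site and a window that ends before the annotated gene, which holds for other members too. Capitals mark matches to GGAAG or its reverse complement CTTCC, the core that ETS factors of endothelium bind. The windows are Plxnc1 at chr10:94944846-94945095, Plxnd1 at chr6:115995006-115995255 and Ephb2 at chr4:136836013-136836262, all on the minus strand and printed 5′ to 3′.
Plxnc1: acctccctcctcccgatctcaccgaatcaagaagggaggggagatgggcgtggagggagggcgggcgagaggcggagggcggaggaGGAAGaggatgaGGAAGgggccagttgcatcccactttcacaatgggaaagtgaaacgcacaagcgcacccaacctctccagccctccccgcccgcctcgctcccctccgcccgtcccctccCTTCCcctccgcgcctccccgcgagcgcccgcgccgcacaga
Plxnd1: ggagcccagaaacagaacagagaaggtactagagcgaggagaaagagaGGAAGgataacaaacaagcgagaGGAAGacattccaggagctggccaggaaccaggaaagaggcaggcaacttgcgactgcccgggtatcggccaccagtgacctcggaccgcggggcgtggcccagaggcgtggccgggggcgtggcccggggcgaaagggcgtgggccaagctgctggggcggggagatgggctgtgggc
Ephb2: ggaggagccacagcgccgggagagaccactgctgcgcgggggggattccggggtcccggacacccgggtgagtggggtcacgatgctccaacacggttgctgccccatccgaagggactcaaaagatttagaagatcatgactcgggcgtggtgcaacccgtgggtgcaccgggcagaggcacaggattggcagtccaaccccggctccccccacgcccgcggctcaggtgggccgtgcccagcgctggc
Plxnc1 had 3 matches, Plxnd1 had 2 and Ephb2 had 0, while Robo4, whose window is not printed, had 2. Epha3, which lay higher, and Ephb4, which lay lower, also had a single such window and held 1 match each. The printed windows are examples, and no contrast by direction is read from them. Of 73 windows for 57 of the 66 member symbols, 68.5% held GGAAG on either strand, against 64.1% of all 32851 windows. The forkhead motif GTAAACA, or its reverse complement TGTTTAC, was in 0 of the 73 member windows and in 3.17% of all. A match is a description of these letters only.

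The other plexins stood as follows. Plxnb2, a receptor of class 4 semaphorins, was at 28.7, 39.1 and 34.6 FPKM in controls against 40.2, 32.5 and 30.8 FPKM in mutants, with a log2 fold change of 0.02 ± 0.15 (SE). Plxna1, Plxna2 and Plxna4 had log2 fold changes of -0.02, 0.06 and -0.19, and Plxnb1 one of 0.19. The X-linked Plxna3 was at 2.198, 4.98 and 5.32 FPKM in controls against 7.34, 4.25 and 6.18 FPKM in mutants, so its log2 fold change of 0.46 ± 0.29 (SE) lay within the spread. Summed over the 9 plexins, the level was 110 ± 10.6 FPKM in controls against 94.1 ± 9.37 FPKM in mutants (SD, n = 3 each), with library sums of 99.4, 121 and 109 against 104, 92.1 and 85.9 FPKM that overlap.

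Of the semaphorins, Sema4d was the member furthest below 0 and Sema5b the one furthest above. Sema4d (ENSMUSG00000021451; chromosome 13, 51685529 to 51793747), a transmembrane ligand of B-type plexins, was at 4.39, 4.97 and 5.23 FPKM in controls against 3.31, 3.28 and 2.83 FPKM in mutants. The groups did not overlap, and the log2 fold change was -0.50 ± 0.11 (SE, limma, unadjusted p = 0.0024, adjusted p = 0.324). Sema5b (ENSMUSG00000052133; chromosome 16, 35541145 to 35664732), a transmembrane semaphorin with thrombospondin repeats, was at 0.8004, 1.69 and 1.43 FPKM in controls against 1.98, 2.39 and 3.04 FPKM in mutants. Its log2 fold change was 0.60 ± 0.20 (SE, limma, unadjusted p = 0.0186, adjusted p = 0.669), again without overlap, from levels near the lower limit of the test.

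Class 3 semaphorins, the secreted class, had 4 tested members above 0 and 2 below, with a median of 0.12. Sema3c (chromosome 5, 17574281 to 17730268), a cue of the cardiac neural crest and outflow tract, was at 9.42, 10.3 and 10.1 FPKM in controls against 12.2, 12.7 and 10.5 FPKM in mutants. All mutant libraries lay above the controls by a small margin, with a log2 fold change of 0.22 ± 0.10 (SE, limma, unadjusted p = 0.0611). Sema3a (chromosome 5, 13125414 to 13602565), which repels axons and endothelial cells through Nrp1, was the most abundant of the class. It was at 11.4, 11.9 and 11.9 FPKM in controls against 11.3, 10.3 and 10.98 FPKM in mutants, a separation that amounts to a log2 fold change of -0.11 ± 0.09 (SE). The other tested class 3 members Sema3b, Sema3d, Sema3f and Sema3g lay between -0.21 and 0.13 with overlapping groups.

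Among the membrane-bound semaphorins, Sema6d, which acts in the developing heart through Plxna1, had the highest level. It was at 11.3, 17.7 and 18.1 FPKM in controls against 14.8, 16.8 and 18.2 FPKM in mutants, with control replicate 1 apart and the groups overlapping (log2 fold change 0.10 ± 0.18, SE). Sema4c, the most abundant class 4 member, was at 6.91, 8.96 and 8.65 FPKM in controls against 9.71, 7.61 and 8.51 FPKM in mutants (0.07 ± 0.13, SE). Sema4b, Sema4g, Sema5a, Sema6a and Sema6c also overlapped between groups, with log2 fold changes of -0.09, 0.30, 0.37, 0.16 and -0.01.

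In the Slit and Robo system the tested ligands did not separate the groups, and of the 3 tested receptors Robo4 did. Slit2, the most abundant Slit, was at 24.2, 29.6 and 27.7 FPKM in controls against 25.2, 23.4 and 27.1 FPKM in mutants. Slit3 was at 7.63, 10.2 and 9.15 against 9.72, 9.05 and 7.96 FPKM. The log2 fold changes were -0.10 ± 0.11 and -0.01 ± 0.13 (SE), with 95% intervals of -0.36 to 0.16 and -0.30 to 0.29.

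Robo4 (ENSMUSG00000032125; plus strand of chromosome 9, 37401897 to 37415115) is the Robo receptor of endothelial cells and is known for stabilising vessels. Its level was 0.952, 1.80 and 1.75 FPKM in the controls against 2.69, 3.39 and 3.30 FPKM in the mutants. The lowest mutant library exceeded the highest control, and the mean of 3.12 ± 0.379 FPKM was 2.08-fold that of 1.502 ± 0.477 FPKM (SD, n = 3 each). The log2 fold change was 0.74 ± 0.18 (SE, limma, unadjusted p = 0.00377, adjusted p = 0.374). Control replicate 1 lay apart at the low end, and without both replicate 1 libraries the difference was 0.65 ± 0.11 on the log2 scale (SE, limma, adjusted p = 0.273). With a Y-linked covariate it was 0.534 ± 0.245 (SE, limma, unadjusted p = 0.0658). Robo1, the most abundant Robo, was at 8.88, 13.2 and 12.6 FPKM in controls against 11.4, 12.0 and 13.1 FPKM in mutants (0.08 ± 0.15, SE), and Robo2 had a log2 fold change of 0.11 ± 0.18 (SE), both with overlapping groups.

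Netrin and Unc5 genes showed no separation between groups. Ntn1, the best known netrin, was at 19.8, 23.4 and 19.3 FPKM in controls against 18.6, 19.9 and 19.95 FPKM in mutants, with a log2 fold change of -0.09 ± 0.10 (SE). Unc5b, the netrin receptor of endothelium and also a partner of Robo4, was at 24.7, 27.9 and 25.2 FPKM in controls against 26.1, 26.5 and 24.6 FPKM in mutants. Its log2 fold change was -0.01 ± 0.09 (SE), with a 95% interval of -0.23 to 0.21. Unc5c was at 4.39, 5.05 and 5.42 FPKM against 9.41, 5.002 and 5.99 FPKM, where mutant replicate 1 was far above all others and mutant replicate 2 lay among the controls. Ntn3 and Ntn4 lay at 0.14 and 0.15. Dcc, the other netrin receptor, was low at 0.206 ± 0.0459 FPKM in controls against 0.202 ± 0.0400 FPKM in mutants (SD, n = 3 each).

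Eph receptors held members on both sides. Ephb2 (ENSMUSG00000028664; chromosome 4, 136647539 to 136835988), a receptor for B-type ephrins, was at 2.83, 2.89 and 2.84 FPKM in controls, which lay close together, and at 4.83, 4.63 and 3.46 FPKM in mutants. Its log2 fold change was 0.45 ± 0.13 (SE, limma, unadjusted p = 0.00978, adjusted p = 0.559). Ephb4 (ENSMUSG00000029710; chromosome 5, 137350109 to 137378669), the venous receptor of Efnb2 and the most abundant Eph gene, lay lower. It was at 25.6, 28.0 and 26.0 FPKM in controls against 24.1, 21.8 and 21.3 FPKM in mutants, without overlap, with a log2 fold change of -0.24 ± 0.10 (SE, limma, unadjusted p = 0.0412, adjusted p = 0.742). GENCODE places the gene Zan on the other strand, overlapping it, and the sources used here give no strand setting for the deposited values. Other named members overlap annotated genes too, among them Sema4d and Sema5b on the other strand and Plxnc1 on the same strand. Ephb3 and Ephb6 overlapped between groups at 0.03 and -0.09.

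Of the EphA receptors, Epha3 (chromosome 16, 63543534 to 63864175), a receptor of cushion mesenchyme, was at 3.25, 3.65 and 3.13 FPKM in controls against 6.95, 4.08 and 4.39 FPKM in mutants. Mutant replicate 1 stood well above the other mutants, and the log2 fold change of 0.47 ± 0.18 (SE, limma, unadjusted p = 0.0325, adjusted p = 0.742) was 0.27 ± 0.12 (SE) without that library and 0.26 ± 0.11 (SE) without both replicate 1 libraries. Epha2 (chromosome 4, 141301240 to 141329384), an endothelial receptor of Efna1, was at 3.76, 4.24 and 3.57 FPKM in controls against 3.38, 3.54 and 2.70 FPKM in mutants, a narrow separation with a log2 fold change of -0.21 ± 0.12 (SE), which was -0.12 ± 0.13 (SE) without mutant replicate 3 and -0.10 ± 0.18 (SE) with the Y-linked covariate. Epha7, the most abundant of the class, was at 10.1, 13.97 and 14.7 FPKM in controls against 14.7, 12.4 and 14.3 FPKM in mutants. It overlapped between groups, as did Epha1 and Epha4, with log2 fold changes of 0.10, -0.08 and 0.29.

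The ephrins anchored by a lipid, class A, included Efna1 (ENSMUSG00000027954; chromosome 3, 89271733 to 89281142), a ligand of Epha2 that endothelial cells make. It was at 11.6, 10.6 and 10.02 FPKM in controls against 9.95, 8.43 and 6.61 FPKM in mutants, with a log2 fold change of -0.34 ± 0.14 (SE, limma, unadjusted p = 0.0465, adjusted p = 0.742). The gap between the groups was small beside the spread of the mutants. Without mutant replicate 3 the log2 fold change was -0.21 ± 0.13 (SE, limma, unadjusted p = 0.152), and with a Y-linked covariate it was -0.16 ± 0.19 (SE, limma, unadjusted p = 0.431). Efna5, a ligand of Epha3, was the gene with 2 rows, and these differed. The row ENSMUSG00000048915, on chromosome 17 from 62604184 to 62881317, was at 4.07, 6.04 and 6.05 FPKM in controls against 7.08, 4.498 and 4.38 FPKM in mutants (log2 fold change -0.02 ± 0.20, SE). The row ENSMUSG00000090425, an identifier not found in GENCODE release M21, was at 1.26, 3.16 and 3.11 FPKM in controls against 4.65, 3.53 and 4.67 FPKM in mutants (0.64 ± 0.25, SE, limma, unadjusted p = 0.0361). Control replicate 1 was far below the other controls in that row, and without it the log2 fold change was 0.35 ± 0.14 (SE). The sources used here do not say how reads were shared between these rows, and both values are uncertain. Efna2 and Efna4 lay at 0.03 and 0.05 with overlapping groups.

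Class B ephrins span the membrane, and all 3 overlapped between groups. Efnb3, the most abundant guidance gene of all, was at 53.6, 42.4 and 38.6 FPKM in controls against 48.5, 41.1 and 41.6 FPKM in mutants. Efnb2, the arterial ligand of Ephb4, was at 17.5, 20.5 and 20.8 FPKM in controls against 24.6, 17.1 and 15.8 FPKM in mutants, so that mutant replicate 1 was the highest library and mutant replicates 2 and 3 the lowest. The X-linked Efnb1 was at 16.4, 16.1 and 16.7 against 17.3, 15.2 and 14.6 FPKM. Their log2 fold changes were -0.03 ± 0.14, -0.05 ± 0.17 and -0.06 ± 0.10 (SE). The log2 ratio of Efnb2 to Ephb4 within a library was -0.55, -0.45 and -0.33 in controls and 0.02, -0.35 and -0.43 in mutants, with overlap.

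**Figure D3:**
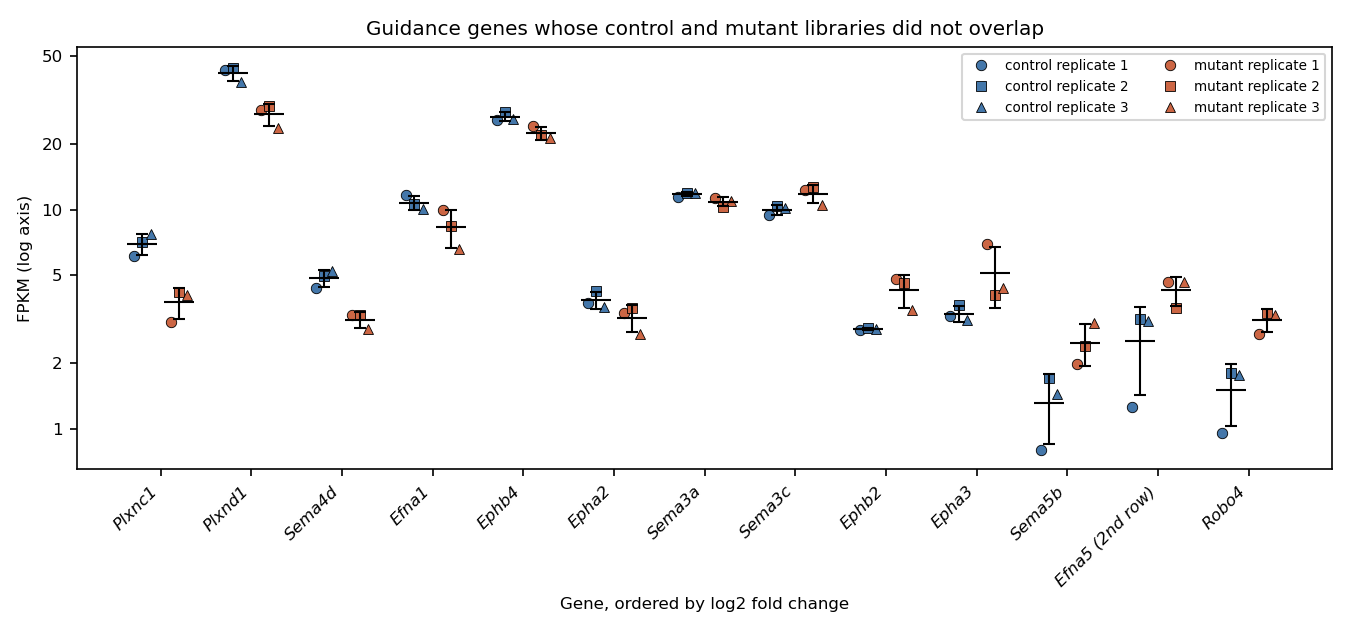
FPKM on a log axis for the 13 guidance genes, of the 50 tested, whose groups did not overlap, ordered by log2 fold change. Symbols are libraries (blue control, red mutant, shape for the replicate), bars are mean and SD over 3 libraries, and "2nd row" is the Efna5 row ENSMUSG00000090425, with Plxnd1 at 38.3 to 44.1 FPKM in controls against 23.5 to 29.7 FPKM in mutants.

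A list of 14 members known from endothelium, chosen with earlier results of these data known, held 5 members above 0 and 9 below, with a median log2 fold change of -0.03, while of all genes tested 6072 lay above 0 and 6916 below. At an unadjusted p under 0.05, Plxnd1, Ephb4 and Efna1 lay lower and Robo4 higher, where 4.37% and 2.31% of all genes did, and nothing is read from these counts in a list so chosen. Since endothelial markers as a whole lay lower in the mutants, members were also set against Cdh5, the cadherin of endothelial junctions, within each library. These ratios were chosen after the values were seen and are given without a test. Plxnc1 and Sema4d, also set against Cdh5, are not in the list of 14, and which cells of these hearts express them was not tested. Cdh5 itself was at 44.6, 56.5 and 49.6 FPKM in controls against 27.2, 33.9 and 30.1 FPKM in mutants. Its log2 fold change was -0.71, against a median of -0.37 over the 12 endothelial markers. A gene lowered less than Cdh5 therefore lies higher relative to it, and the ratios depend on the reference chosen.

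The log2 ratio of Plxnd1 to Cdh5 was -0.26 ± 0.19 in controls and -0.16 ± 0.21 in mutants (SD, n = 3 each), that of Plxnc1 was -2.85 ± 0.15 and -3.01 ± 0.13, and that of Sema4d was -3.37 ± 0.13 and -3.27 ± 0.20. In these 3 genes the groups overlapped relative to Cdh5. Robo4 did not overlap, with log2 ratios of -5.55, -4.97 and -4.83 in controls and -3.34, -3.32 and -3.19 in mutants, and Unc5b, at -0.95 ± 0.09 and -0.24 ± 0.15, and Ephb4, at -0.92 ± 0.11 and -0.44 ± 0.24, also separated the groups. Against Pecam1, an adhesion gene of endothelium, the log2 ratio was -2.56 ± 0.16 in controls and -3.05 ± 0.18 in mutants for Plxnc1, with no overlap, and 0.04 ± 0.13 and -0.20 ± 0.16 for Plxnd1, with overlap. For Robo4 it was -4.82 ± 0.44 and -3.33 ± 0.14. Unc5b and Ephb4 were not set against Pecam1, so their separation holds for Cdh5 only. The part of the lower endothelial marker level in the values of single members was not tested.

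**Figure D4:**
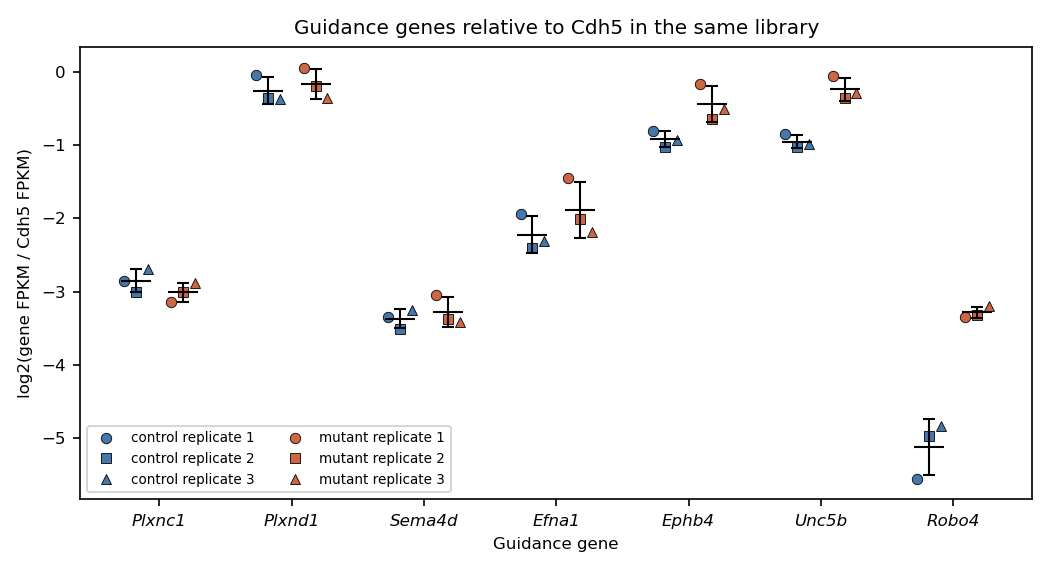
Log2 of the FPKM ratio of 7 guidance genes to Cdh5 within each library (blue control, red mutant, shape for the replicate), with mean and SD over 3 libraries. Plxnc1, Plxnd1 and Sema4d overlap between groups, while Robo4 lies at -5.55 to -4.83 in controls and at -3.34 to -3.19 in mutants.

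The replicate 1 libraries stood apart for guidance genes. Control replicate 1 was the lowest of the 6 libraries for 27 of the 50 tested members, or 54%, and for 26.4% of all genes tested. Mutant replicate 1 was the highest library for 21 of the 50, or 42%, and for 17.2% of all genes. The median deviation of a member from its mean over the libraries was -0.19 in control replicate 1 and 0.14 in mutant replicate 1 on the log2(FPKM + 1) scale, and between -0.07 and 0.12 in the other 4 libraries, while over all genes it lay between -0.02 and 0.02 in all 6. Markers of neurons and neural crest were highest in mutant replicate 1 too, at 22.3 FPKM summed. Their lowest sum was in mutant replicate 3 (15.4 FPKM) and not in control replicate 1 (15.7 FPKM). Single markers of that list differed, and Tubb3 and Elavl4 were not highest in mutant replicate 1. Cardiomyocyte markers were lowest in mutant replicate 1, at 10330 FPKM summed, followed by control replicate 1 at 14210 FPKM. The part of either list in the member values was not tested.

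**Figure D5:**
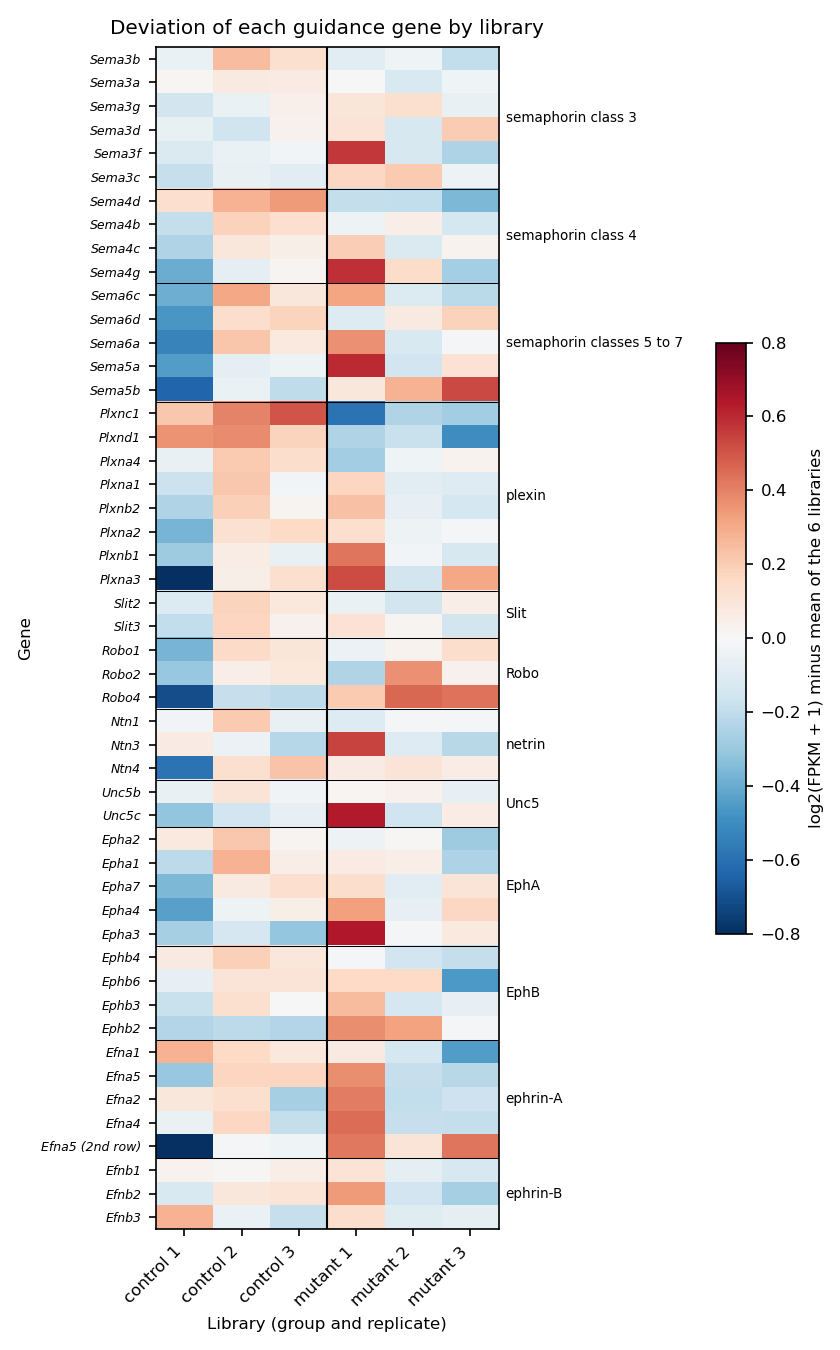
Deviation of log2(FPKM + 1) from the gene's mean over the 6 libraries, for the 50 tested guidance genes (rows, by family) in each library (columns). Red is above and blue below the mean. Control replicate 1 is mostly blue (median -0.19) and mutant replicate 1 mostly red (0.14), while Plxnc1, Plxnd1 and Sema4d are lower in all 3 mutants.

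Within replicates 2 and 3 alone, 37 of the 50 members lay below 0, or 74%, against 51.8% of all genes. The libraries did not overlap for 25 lower members (24% of all genes) and for 6 higher ones (22% of all genes), and the median log2 fold change was -0.14 over members and -0.01 over all genes. The median of the set thus turned its direction with these libraries. For the leading members this could not happen, as their groups did not overlap over all libraries, and only the size is informative. Plxnc1 was at -0.71 ± 0.09, Plxnd1 at -0.62 ± 0.14, Sema4d at -0.59 ± 0.11, Robo4 at 0.65 ± 0.11, Sema5b at 0.53 ± 0.15 and Ephb2 at 0.38 ± 0.15 (SE). Efnb2 was then at -0.31 ± 0.08 (SE, limma, unadjusted p = 0.0101, adjusted p = 0.37) and the Efna5 row ENSMUSG00000048915 at -0.37 ± 0.09 (SE, limma, unadjusted p = 0.00768, adjusted p = 0.346), both named after their values were seen. No member passed over all genes within these 4 libraries.

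Co-receptors and signalling partners of the families were taken as a list of 67 symbols, on 70 rows, of which 60 were tested. None passed over all genes, the smallest limma adjusted p was 0.504, and the median log2 fold change was -0.02, with 23 above 0 and 37 below. At an unadjusted p under 0.05, 4 lay lower and 2 higher, where 4.37% and 2.31% of all genes did, so neither count stood far from the background. Those lower were Arhgef15, known from vascular cells, at 7.75 ± 0.592 and 5.81 ± 0.259 FPKM (SD, n = 3 each), Dpysl3, a collapsin response mediator, at 142 ± 11.6 and 109 ± 4.91 FPKM, Rras, a GTPase that plexins inactivate, at 44.6 ± 4.11 and 34.7 ± 1.65 FPKM, and Sh2d3c, an adaptor of Eph receptors, at 11.7 ± 0.467 and 8.90 ± 1.14 FPKM. Their log2 fold changes lay between -0.38 and -0.35, and in none of the 4 did the groups overlap.

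The higher partners were Nrp2, a co-receptor of class 3 semaphorins, and Flrt2, a membrane ligand of Unc5 receptors. Nrp2 was at 3.92, 4.43 and 4.71 FPKM in controls against 7.73, 5.56 and 5.20 FPKM in mutants (log2 fold change 0.41 ± 0.15, SE), and Flrt2 at 13.98, 17.4 and 17.3 against 22.4, 18.0 and 21.7 FPKM (0.33 ± 0.13, SE). In both the groups did not overlap. Without mutant replicate 1 the Nrp2 value was 0.25 ± 0.12 (SE, limma, unadjusted p = 0.0686), and within replicates 2 and 3 the log2 fold changes of Nrp2 and Flrt2 were 0.20 ± 0.09 and 0.18 ± 0.10 (SE). Nrp1, the more abundant neuropilin, was at 28.8, 33.7 and 33.4 FPKM in controls against 28.7, 31.9 and 37.5 FPKM in mutants, with overlap (0.03 ± 0.13, SE), and the netrin receptor Neo1 had a log2 fold change of 0.07 ± 0.12 (SE).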

How the data were processed

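The authors deposited FPKM values for 38918 genes in 6 libraries. Per the submitters' processing notes, the tools were TopHat2 (2.0.9), Cuffdiff, HTSeq and Cufflinks (2.2.1) and the build was mm10, with no role or order stated. Annotation release, strand setting and the treatment of multiply matching reads are not stated there.

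Values were analysed as log2(FPKM + 1), which understates the change of low genes, over the 12988 genes whose mean reached 1 FPKM, with limma 3.58.1 in R 4.3.3 (intensity trend, no block, 4 residual degrees of freedom and 3.33 prior degrees of freedom, Benjamini-Hochberg over all genes, threshold 0.05, two-sided). The fit was tested on simulated data. Errors are SD over 3 libraries or the moderated SE. The table holds no counts and read depth is unknown. Under 0.3 FPKM, ratios of genes between libraries piled up at 1 value for 9.9% to 17.2% of genes among replicates 2 and 3, and for 1.2% to 1.41% in pairs of a replicate 1 library with these. Relative to control replicate 2, the depth of control replicate 3, mutant replicate 2 and mutant replicate 3 was 0.669, 0.678 and 0.618, and none could be read for replicate 1. The replicate 1 libraries were therefore also left out together.

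Members, lists and tests were chosen with earlier results of these data known. Named are the highest member of each family, members with an unadjusted p under 0.05 or without overlap, partners with an unadjusted p under 0.05, and Nrp1, Nrp2, Dcc and Neo1. Library values of Plxnb2, Plxna3, Slit3, Unc5c, Efnb1, Efnb2 and the Efna5 row ENSMUSG00000048915 fall outside this rule and were chosen after they were seen. Positions are from GENCODE M21 (GRCm38), in which 65 of 67 identifiers were found. Start-site windows are from RefSeq (GRCm38.p6). Alternatives were other pseudocounts, filters and scalings, no trend, the replicate block, a Y-linked covariate and leaving out libraries.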

Additional observations from a re-analysis of the deposited data

How the results depend on the processing

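No member and no partner passed the adjusted threshold in any of the 16 alternatives. All 19 members and partners named for their difference kept their direction in each alternative that tested them (297 values). Their groups do not overlap, so leaving out libraries or changing the pseudocount, filter, trend or block could not turn it. Only the scalings and the Y-linked covariate could have done so, and most of these values are therefore no check of the direction. The count of members at an unadjusted p under 0.05 was 5 higher and 5 lower, where 2.31% and 4.37% of all genes were. It was 0 higher with a mean of at least 5 FPKM, which tested 27 members. The 5 higher members have means under 5 FPKM, so this filter left them out and the 0 was fixed in advance. The count was 3 lower with upper quartile scaling (3.32% of all genes). With the Y-linked covariate it was 2 higher and 3 lower, where 0.878% and 1.98% of all genes were. With that covariate Plxnc1, Plxnd1, Sema4d, Ephb2 and Epha3 stayed under 0.05. Robo4, Sema5b, Ephb4, Efna1 and the Efna5 row ENSMUSG00000090425 did not. Within replicates 2 and 3 the count was 3 higher and 8 lower, where 4.36% and 6.62% of all genes were. Without any 1 library there were 3 to 7 higher and 3 to 5 lower, with 3 lower without control replicates 2 or 3 or mutant replicates 2 or 3, and 3 higher without mutant replicate 1. The shares of all genes were then 1.16% to 3.62% higher and 2.26% to 5.29% lower. Members without overlap, 6 higher and 7 lower, were 1 higher at a mean of at least 5 FPKM, as that filter left out the same 5 members. They were 25 lower within replicates 2 and 3, where 24% of all genes were. Without 1 library they were 6 to 11 higher, the most without mutant replicate 2, where 10% of all genes were higher without overlap. They were 7 to 12 lower, the most without control replicate 1, where 15.5% of all genes were. Over all 6 libraries these shares were 5.23% and 8.17%, so the shares of all genes rose too. The median log2 fold change of members was -0.141 within replicates 2 and 3 and -0.086 to 0.106 without any 1 library, negative without control replicate 1 or mutant replicate 1. The causes were not tested. Partners at an unadjusted p under 0.05 were 6, 2 with the Y-linked covariate and 5 to 7 without any 1 library, beside the same shares of all genes. Over all genes tested, upper quartile scaling moved the median log2 fold change from -0.013 to 0.019.

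Same-numbered libraries had deviations correlated at 0.19, 0.031 and 0.23 for replicates 1, 2 and 3. Pairs with unlike numbers lay between -0.23 and 0.056, the latter for control replicate 2 with mutant replicate 3. Replicates 1 and 3 thus matched best by number. Mutant replicate 2 was closest to control replicate 2, but control replicate 2 was closer to mutant replicate 3. The labels do not say whether same-numbered libraries share more than the number, and this was not tested. With the replicate block the members at an unadjusted p under 0.05 were 5 higher and 5 lower, while the shares of all genes were 3.89% higher and 7.98% lower against 2.31% and 4.37% without it. The smallest member adjusted p was 0.0978 (Plxnc1, limma), and 10 partners were past an unadjusted p of 0.05, against the same shares. Read depth is unknown, so no counting interval is given for low members such as Robo4 and Sema5b.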
